A study of Mus musculus with 18 samples.

Results

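Cones are the photoreceptors of daylight and colour vision, and in the mouse they are a small minority among the rods. Light turns a cone opsin on, the opsin activates the cone transducin (Gnat2 with the subunits Gnb3 and Gngt2), transducin releases the cone phosphodiesterase (Pde6c) from its inhibitory subunit (Pde6h), cyclic GMP falls and the cone cyclic nucleotide-gated channel (Cnga3 with Cngb3) closes. Cone arrestin (Arr3) then quenches the opsin. Rods run the same cascade with their own copies of nearly every protein, so a cone gene can be read beside its rod counterpart in the same library. Most mouse cones make both opsins, the S-opsin (Opn1sw), tuned to short wavelengths, and the M-opsin (Opn1mw), with S-opsin dominant in the ventral retina.

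The genes described here are these 10 cone genes, picked by symbol from the 23420 symbols in the count files, and all 10 passed the filter on low counts. RNA came from whole retinas of 9 wild-type BALB/cJ albino mice in 3 groups of 3. By the study's methods they were 8 to 10 weeks old and both sexes were used. The naive mice were neither treated nor exposed to the bright light. The vehicle mice received DMSO and the TD139 mice TD139 in DMSO at 15 mg/kg, an inhibitor of galectin-3, a sugar-binding protein of reactive microglia, by daily intraperitoneal injection from the day before white light of 15000 lux for 1 h, and their retinas were taken 4 days after the light. Each mouse was sequenced on 2 flow cells, and the runs of a mouse were summed. The question was how the cone transcripts stood after light damage and under TD139.

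Between 26171887 and 30201517 reads per mouse fell on genes. Reads on no annotated gene were 18.5 to 19.9% of the total in the naive mice and vehicle mice 1 and 3, 16.5% in vehicle mouse 2 and 21.3 to 22.8% in the TD139 mice. The labelled tissue showed its markers, with 9 rod counterparts of the cone genes together at 28987 to 50999 CPM (reads per 1000000 of the library size as adjusted by TMM). Lens genes (Cryaa, Crybb2 and 4 others) summed to 9038 CPM in vehicle mouse 2 and to at most 388 CPM in each of the other 8, and genes of the pigment epithelium to between 75.5 and 329 CPM, with Best1 at 0 counts in 7 of 9 mice. Their part in any result was not tested.

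The stretch before the start of a photoreceptor gene often holds sites for CRX, the homeobox factor that drives rod and cone genes alike, and Crx itself was among the genes that moved in these retinas. RefSeq promoters (GRCm38.p6) matched 6 of the 10 cone genes. Opn1sw, Opn1mw, Arr3 and Gnat2 are shown because the opsins are compared with each other below, Arr3 held the most matches and Gnat2 held the longer form. Each line gives the 250 bases before the start on the gene's strand, with capitals at every TAATC or its reverse complement GATTA.

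Opn1sw, chr6:29380514-29380763, minus strand: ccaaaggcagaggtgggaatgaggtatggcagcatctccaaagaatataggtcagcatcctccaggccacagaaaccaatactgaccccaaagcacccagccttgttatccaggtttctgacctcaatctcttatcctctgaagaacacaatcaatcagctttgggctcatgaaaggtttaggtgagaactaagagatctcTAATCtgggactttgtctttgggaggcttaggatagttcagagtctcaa
Opn1mw, chrX:74127216-74127465, plus strand: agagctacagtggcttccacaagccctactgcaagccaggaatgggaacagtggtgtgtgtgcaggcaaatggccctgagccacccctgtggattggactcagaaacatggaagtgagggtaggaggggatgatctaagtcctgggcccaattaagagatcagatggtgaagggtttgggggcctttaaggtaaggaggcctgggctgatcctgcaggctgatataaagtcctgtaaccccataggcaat
Arr3, chrX:100605247-100605496, plus strand: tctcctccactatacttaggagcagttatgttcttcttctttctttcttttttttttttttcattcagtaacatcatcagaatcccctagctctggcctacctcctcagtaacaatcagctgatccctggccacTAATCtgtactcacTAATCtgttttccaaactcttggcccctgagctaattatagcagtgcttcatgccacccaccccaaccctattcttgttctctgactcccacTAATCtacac
Gnat2, chr3:108092816-108093065, plus strand: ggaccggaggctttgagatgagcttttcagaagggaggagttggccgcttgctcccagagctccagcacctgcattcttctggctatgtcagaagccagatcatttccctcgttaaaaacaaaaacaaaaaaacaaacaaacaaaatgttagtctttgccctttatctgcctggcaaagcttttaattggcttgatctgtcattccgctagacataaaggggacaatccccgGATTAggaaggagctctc

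The match in Opn1sw began 49 bases before the start, those in Arr3 116, 102 and 10 bases before it, and the one in Gnat2 18 bases before it. Opn1mw held none, nor did Pde6h or Cnga3, whose stretches are not shown. The longer TAATCC, which contains TAATC, was found on either strand in Gnat2 alone of the 6 cone genes. Of 32851 RefSeq promoters, 19.8% held TAATC or GATTA in the same window and 6.25% held TAATCC or its reverse complement. These matches describe the letters in the window only. Pde6c, Cngb3, Gnb3 and Gngt2 were not matched in the promoter table used here.

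The cone genes covered a wide range of levels. Per kilobase of annotated transcript, Gnb3 stood highest in the naive retina, at 374 ± 33.7 CPM per kb (SD, n = 3), and its 3 mice lay above those of every other cone gene in each group. Arr3 (238 ± 90.8), Opn1sw (230 ± 66.0), Gngt2 (149 ± 55.7), Opn1mw (105 ± 9.10) and Gnat2 (94.3 ± 18.4 CPM per kb) followed, and in the naive mice each of these overlapped the next in this order. Below them came Pde6h (23.5 ± 9.59), Pde6c (13.2 ± 1.91), Cnga3 (3.45 ± 0.0335) and Cngb3 (2.40 ± 0.665 CPM per kb), and the pair Pde6h and Pde6c overlapped. The figure for Pde6h rests on an annotated transcript of 5940 bases, long for a small inhibitory subunit. In the vehicle mice Opn1sw stood above Arr3 in the order, with overlap, and in the TD139 mice Arr3 stood above Opn1sw with no overlap.

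**Figure D1:**
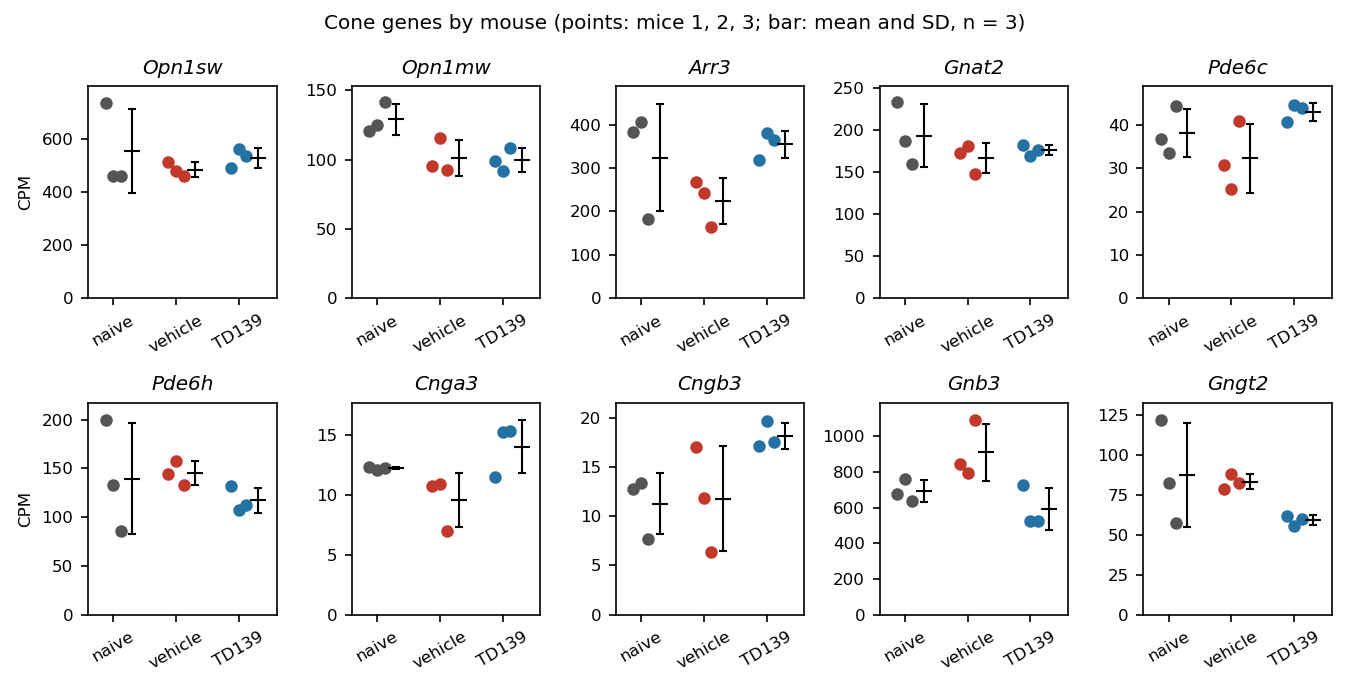
Levels of the 10 cone genes in CPM (linear axes from 0) in the naive, vehicle and TD139 mice; each point is 1 mouse and the bar beside it the mean and SD of the 3 mice. The vehicle and naive mice overlap for most genes, and in the TD139 mice Cnga3 lies above and Gnb3 below the vehicle mice.

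After light damage no cone gene passed the test in either direction. In the vehicle against the naive mice 0 of 10 cone genes were called higher or lower at an adjusted p under 0.05, where 4.91% of all 15196 tested genes were called higher and 2.89% lower. With all mice 746 genes were called higher and 439 lower, and 1 and 0 without naive mouse 2. The counts were 62 and 29 without naive mouse 1, 140 and 77 without naive mouse 3, 219 and 30 without vehicle mouse 1 and 65 and 19 without vehicle mouse 3. At an unadjusted p under 0.05 there were 2 (Opn1mw and Gnb3). DESeq2 called 1 lower and limma with voom and quality weights called 2 lower, beside 7% and 9.95% of all genes called lower by these tools. The median log2 fold change of the 10 was -0.20, against -0.00 over all tested genes, with 7 below 0. Without naive mouse 1 that median was 0.02, and with library size alone it was -0.11, where the median of all genes was 0.09. All vehicle mice lay above all naive mice for 1 cone gene and below them for 2, shares to be set beside 16.7% and 16.6% of all genes. A cone gene's level in whole retina cannot tell fewer cones apart from less RNA per cone.

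Under TD139 against the vehicle mice Cnga3 was called higher and Gnb3 lower, 1 gene each of 10, while 17.2% of all tested genes were called higher and 16.2% lower, so the cone genes were called no more often than the background. The 3 TD139 mice lay above the 3 vehicle mice for Arr3, Cnga3 and Cngb3 and below them for Gnb3, Gngt2 and Pde6h; over all genes 26% lay above and 25.4% below. The median of the 10 was 0.10, against -0.02 over all genes. It was 0.04 without vehicle mouse 3, 0.02 with library size alone (all genes -0.10) and 0.22 with length and GC content fitted out. In the TD139 against the naive mice none of the 10 was called, where 2.72% of genes were called higher and 2.38% lower. At an unadjusted p under 0.05 there were 2 (Opn1mw and Gngt2). DESeq2 called 1 lower and limma with voom 3, beside 7.61% and 16.3% of all genes called lower by these tools. Over the whole table none of the tested genes was called in this comparison without naive mouse 1 or 2, vehicle mouse 2 or TD139 mouse 2 or 3, with the replicate block, or with length and GC content fitted out. Non-overlap between TD139 and naive mice was seen above for Cngb3 and below for Opn1mw, beside 15.3% and 16.8% of all genes. The vehicle mice enter the first 2 of these comparisons and the naive mice the first and the last, so the 3 are not independent.

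Neither opsin passed the test in any comparison by edgeR on all mice. Opn1sw stood at 737, 462 and 462 CPM in naive mice 1, 2 and 3, at 514, 479 and 459 in the vehicle mice and at 489, 561 and 536 CPM in the TD139 mice. Naive mouse 1 lay above all others and the groups overlapped. Its log2 fold change was -0.19 ± 0.16 (SE, adjusted p = 0.472) in the vehicle against the naive mice and 0.13 ± 0.16 (adjusted p = 0.571) in the TD139 against the vehicle mice; without naive mouse 1 the first was 0.08.

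Opn1mw was at 121, 125 and 142 CPM in the naive mice, 95.7, 116 and 92.2 in the vehicle mice and 99.2, 91.6 and 109 CPM in the TD139 mice. Both light-exposed groups lay below every naive mouse and overlapped each other. The log2 fold change was -0.35 ± 0.11 (adjusted p = 0.0751) for the vehicle and -0.37 ± 0.11 (adjusted p = 0.0653) for the TD139 mice against the naive mice, neither past the threshold, and -0.02 ± 0.11 (adjusted p = 0.897) between the light-exposed groups. DESeq2 (adjusted p = 0.0343 and 0.0232) and limma with voom (0.0353 and 0.0209) called both values against the naive mice lower. Without vehicle mouse 2, the mouse with lens genes, the first value was -0.46 (adjusted p = 0.0424), which passed. With length and GC content fitted out as described below they were -0.44 (adjusted p = 0.0549) and -0.09 (adjusted p = 0.821).

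The counts of the opsins were also set against each other within each mouse, where depth and scaling cancel. Opn1sw had 6.11, 3.70 and 3.26 counts for each count of Opn1mw in the naive mice, 5.37, 4.14 and 4.98 in the vehicle mice and 4.93, 6.12 and 4.93 in the TD139 mice. The means were 4.35 ± 1.53, 4.83 ± 0.63 and 5.33 ± 0.69 (SD, n = 3) and the groups overlapped. By the exact 2-sided permutation test, which cannot go below 0.1 with 3 against 3 mice, the log2 ratio differed by 0.20 (p = 0.6), 0.14 (p = 0.6) and 0.34 (p = 0.3) in the vehicle against naive, TD139 against vehicle and TD139 against naive comparisons, all with an adjusted p of 0.6 over the 3 comparisons. Transcript length does not cancel in this ratio, since Opn1sw is annotated at 2410 bases and Opn1mw at 1227. From the fit with length and GC content taken out, an alternative chosen after seeing the data, the differences were 0.25, -0.15 and 0.11, so the second changed sign.

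Arr3 varied widely. Cone arrestin stood at 384, 406 and 182 CPM in the naive mice, 267, 242 and 163 in the vehicle mice and 319, 381 and 364 CPM in the TD139 mice. Naive mouse 3 lay with the vehicle mice, and every TD139 mouse lay above every vehicle mouse. The log2 fold change was -0.53 ± 0.29 (adjusted p = 0.269) after light, 0.66 ± 0.29 (adjusted p = 0.105) under TD139 against vehicle and 0.13 ± 0.29 (adjusted p = 0.802) under TD139 against naive. Without naive mouse 3, which enters the shared estimate of the spread, the TD139 against vehicle value was again 0.66 with an adjusted p of 0.0132.

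The transducin subunits did not move together. Gnat2, the cone alpha subunit, was at 234, 187 and 160 CPM in the naive mice, 173, 181 and 147 in the vehicle mice and 183, 170 and 177 CPM in the TD139 mice. These ranges overlapped throughout, and its 3 log2 fold changes lay between -0.21 and 0.08 with no adjusted p under 0.320.

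Gnb3, the beta subunit that cones share with ON bipolar cells, was at 676, 760 and 638 CPM in the naive mice, 845, 795 and 1092 in the vehicle mice and 729, 522 and 525 CPM in the TD139 mice. All vehicle mice lay above all naive and all TD139 mice. After light its log2 fold change of 0.40 ± 0.16 (adjusted p = 0.130) was not past the threshold. Under TD139 it fell by 0.62 on the log2 scale against vehicle (SE 0.16, adjusted p = 0.0144), to 0.65 of the vehicle level, and against the naive mice the value was -0.22 ± 0.16 (adjusted p = 0.372). The call was lost without vehicle mouse 3 (-0.47, adjusted p = 0.0607), TD139 mouse 2 (-0.54, 0.0713) or TD139 mouse 3 (-0.54, 0.0684), and once length and GC content were fitted out as described below (-0.24, 0.220).

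Gngt2, the cone gamma subunit, was at 122, 82.8 and 57.2 CPM in the naive mice, 78.9, 88.3 and 82.8 in the vehicle mice and 61.9, 55.6 and 59.8 CPM in the TD139 mice. The naive mice ran from the TD139 level to above every other mouse, and the TD139 mice lay below the vehicle mice. Its log2 fold changes were -0.07 ± 0.22 (adjusted p = 0.860), -0.50 ± 0.22 (adjusted p = 0.0997) and -0.56 ± 0.22 (adjusted p = 0.120) in the order vehicle against naive, TD139 against vehicle and TD139 against naive. Leaving out naive mouse 1 or naive mouse 3 brought the second to an adjusted p of 0.0159 or 0.0164, since the naive mice share in the estimated spread, at the same fold change of -0.50. Leaving out naive mouse 3 brought the last to -0.79 (adjusted p = 0.0161).

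Catalytic and inhibitory subunits of the phosphodiesterase pointed in opposite directions under TD139, neither past the threshold. Pde6c was at 36.8, 33.5 and 44.3 CPM in the naive mice, 30.9, 25.1 and 41.0 in the vehicle mice and 40.6, 44.6 and 44.1 CPM in the TD139 mice. Vehicle mouse 3 lay among the TD139 mice and the other vehicle mice below them. The log2 fold change was -0.24 ± 0.17 (adjusted p = 0.365) after light and 0.41 ± 0.17 (adjusted p = 0.0731) under TD139 against vehicle, and 0.62 (adjusted p = 0.0291) without vehicle mouse 3.

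Pde6h was at 199, 133 and 85.8 CPM in the naive mice, 144, 158 and 133 in the vehicle mice and 132, 107 and 112 CPM in the TD139 mice. Its naive mice were spread beyond the other groups on both sides. The log2 fold change was 0.05 ± 0.25 (adjusted p = 0.908) after light and -0.31 ± 0.25 (adjusted p = 0.366) under TD139 against vehicle.

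The channel subunits had the fewest reads, 190 to 567 per mouse. Cnga3, which forms the pore, was at 12.4, 12.1 and 12.3 CPM in the naive mice, 10.8, 10.9 and 6.96 in the vehicle mice and 11.5, 15.3 and 15.4 CPM in the TD139 mice. All vehicle mice lay below all naive and all TD139 mice, with vehicle mouse 3 the lowest. After light its log2 fold change was -0.36 ± 0.19 (adjusted p = 0.247), and under TD139 it rose by 0.56 ± 0.19 (adjusted p = 0.0439) against vehicle, 1.47-fold. That call was lost without naive mouse 2 (0.56, adjusted p = 0.0646), vehicle mouse 3 (0.37, 0.132), TD139 mouse 2 (0.49, 0.144) or TD139 mouse 3 (0.49, 0.140), and on either flow cell alone (0.0559 and 0.0665). It was also lost with library size alone (0.47, adjusted p = 0.0630), with only the groups compared (0.55, 0.0661), with the replicate block (0.57, 0.0581) and with length and GC content fitted out (0.50, 0.0845).

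Cngb3, the modulatory subunit, was at 12.8, 13.4 and 7.70 CPM in the naive mice, 17.1, 11.9 and 6.38 in the vehicle mice and 17.2, 19.7 and 17.6 CPM in the TD139 mice. The TD139 mice lay above all 6 others, narrowly so for vehicle mouse 1. Its log2 fold change was 0.06 ± 0.32 (adjusted p = 0.918) after light, 0.63 ± 0.32 (adjusted p = 0.146) under TD139 against vehicle and 0.69 ± 0.32 (adjusted p = 0.180) against naive. Without vehicle mouse 1 the second was 1.00 (adjusted p = 0.0352).

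Summed over the 10 genes, the cone transcripts took 1791 to 2535 CPM in the naive mice, 2107 to 2223 in the vehicle mice and 1959 to 2082 CPM in the TD139 mice. The naive range enclosed both others, and the TD139 mice lay below the vehicle mice. That last order rests on Gnb3, which cones share with ON bipolar cells. Gnb3 stood at 845, 795 and 1092 CPM in the vehicle mice and at 729, 522 and 525 CPM in the TD139 mice. Summed over the other cone genes, every TD139 mouse lay above every vehicle mouse, narrowly so for TD139 mouse 1. The spread among naive mice was wide for several of these genes, with a coefficient of variation of 28.7% for Opn1sw, 38.1% for Arr3, 40.8% for Pde6h and 37.5% for Gngt2, and at the other end 0.97% for Cnga3. The naive group was the most variable of the 3 groups for 5 of the 10 cone genes and for 37.2% of all genes with counts in every group.

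The 9 rod counterparts were measured beside the cone genes. After light 6 of the 9 rod genes fell (0 rose), beside 2.89% of all genes. Their median log2 fold change was -0.59, and they summed to 48162 to 50999 CPM in the naive and 28987 to 39326 CPM in the vehicle mice. Gnat1 (rod transducin alpha) fell by 0.59 on the log2 scale (SE 0.14, adjusted p = 0.0298) and Gnb1 (rod transducin beta, also made outside rods) by 0.59 (SE 0.12, adjusted p = 0.0235), while Sag (rod arrestin) was at -0.26 ± 0.13 (adjusted p = 0.213). The count was 0 of the 9 when naive mouse 1, 2 or 3 or vehicle mouse 1 or 3 was left out, 8 without vehicle mouse 2, and 7, 6 and 5 without TD139 mouse 1, 2 and 3. On all mice it was 8 with DESeq2, limma with voom or length and GC content fitted out, beside 7%, 9.95% and 6.17% of all genes called lower. Under TD139 5 of the 9 rose against vehicle, beside 17.2% of all genes, with a median of 0.40 and summed levels of 39069 to 46250 CPM. Gnb1 rose by 0.43 ± 0.12 (adjusted p = 0.0206) and Gnat1 was at 0.38 ± 0.14 (adjusted p = 0.0514). That count was 3 without vehicle mouse 1 and 1 without vehicle mouse 3, TD139 mouse 2 or TD139 mouse 3. In the TD139 against the naive mice 0 of the 9 rod genes were called by edgeR and 2 had an unadjusted p under 0.05. DESeq2 called 1 lower, and limma with voom 2 lower and 1 higher, beside 7.61%, 16.3% and 19.7% of all genes.

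**Figure D2:**
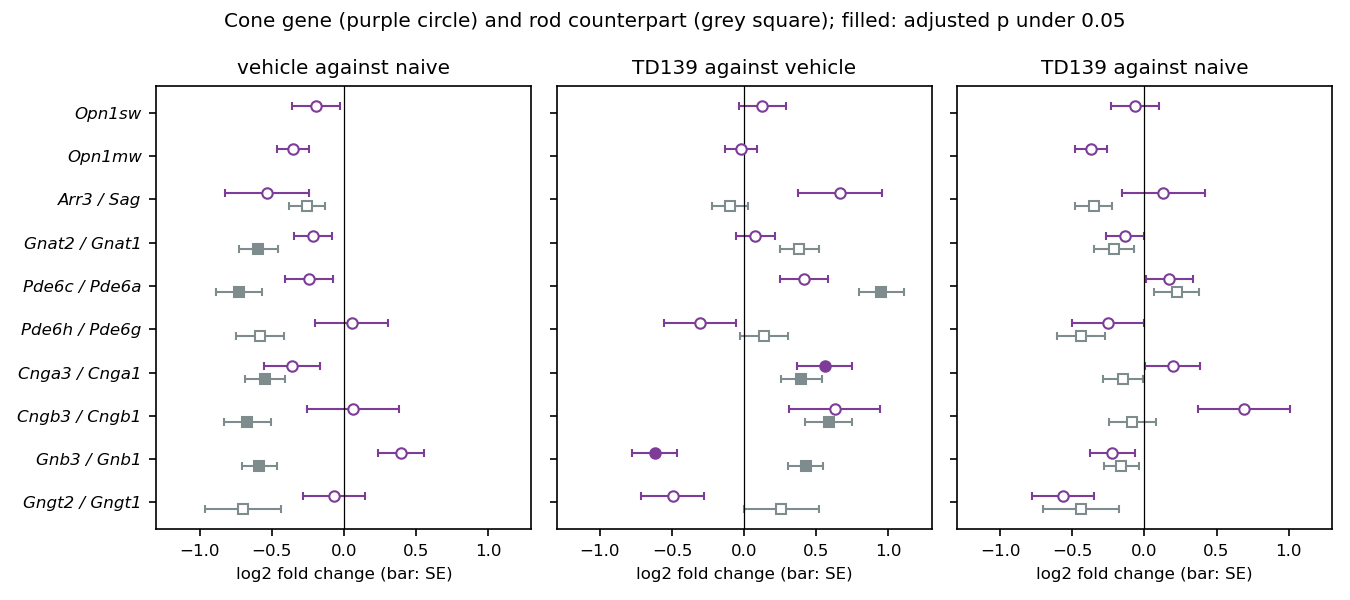
Log2 fold change (edgeR) of each cone gene (purple circle) and, for 8 of them, of a rod counterpart (grey square) in the 3 comparisons, with bars for the SE and filled symbols for an adjusted p under 0.05. In the vehicle against the naive mice 5 of the 8 rod genes shown are filled and no cone gene is.

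The 8 cone genes other than the opsins were then read against a rod counterpart within the same mouse, as a ratio of counts, which does not depend on depth. In the vehicle against the naive mice 7 of 8 ratios were higher, with a median log2 difference of 0.58 (range -0.23 to 0.98), and in 4 pairs every vehicle mouse lay above every naive mouse. The median log2 fold change was -0.59 over the 9 rod genes and -0.20 over the 10 cone genes, so a higher ratio need not mean a higher cone level. How often other pairs of genes lie without overlap was not measured, here or under TD139. Gnat2 had 1.22, 1.07 and 1.05 counts per 100 counts of Gnat1 in the naive and 1.42, 1.39 and 1.60 in the vehicle mice. The other pairs without overlap were Pde6h with Pde6g, Gnb3 with Gnb1 and Gngt2 with Gngt1, and the pair below 0 was Arr3 with Sag, at -0.23 ± 0.52 (SE). For these 4 pairs without overlap the exact 2-sided permutation test gave its smallest possible p of 0.1, so no pair could pass 0.05.

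Under TD139 most of these ratios were lower. Against the vehicle mice the median log2 difference was -0.39, 3 of 8 were positive, and in 3 pairs every TD139 mouse lay below every vehicle mouse (p = 0.1 each, exact permutation test): Gnat2 with Gnat1, Gnb3 with Gnb1 and Gngt2 with Gngt1. Gnat2 had 1.32, 1.04 and 1.20 counts per 100 of Gnat1 in the TD139 mice, overlapping the naive range. Arr3 with Sag went the other way, from 2.88, 2.37 and 1.89 counts per 100 in the vehicle mice to 3.57, 4.15 and 4.47 in the TD139 mice, all above. The median was -0.29 with length and GC content fitted out and -0.22 without vehicle mouse 3. Transcript length does not cancel in these ratios, with Gngt2 at 587 and Gngt1 at 1183 bases and Gnb3 at 1846 and Gnb1 at 3143. The uncorrected log2 differences were -0.79 for Gngt2 with Gngt1, -1.06 for Gnb3 with Gnb1 and -0.31 for Gnat2 with Gnat1. With both properties fitted out the fold changes were -0.04 for Gngt2 and 0.18 for Gngt1, -0.24 for Gnb3 and 0.36 for Gnb1, and 0.23 for Gnat2 and 0.61 for Gnat1. Against the naive mice the median was 0.17, with values of 0.056 without naive mouse 3, 0.052 without TD139 mouse 1, 0.27 without TD139 mouse 2 and 0.34 with length and GC content fitted out. Here Cnga3 with Cnga1 (0.34 ± 0.11) and Cngb3 with Cngb1 (0.82 ± 0.23) were the pairs in which every TD139 mouse lay above.

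**Figure D3:**
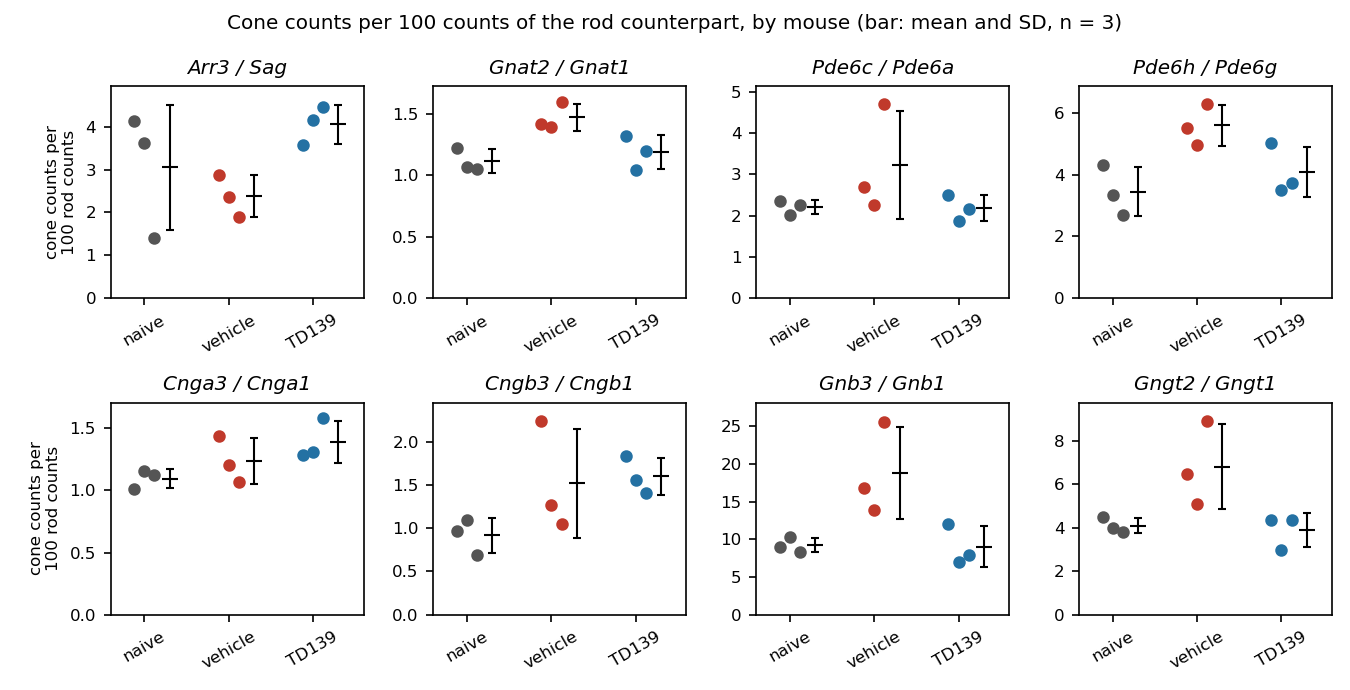
Counts of 8 cone genes per 100 counts of a rod counterpart (linear axes from 0) in the naive, vehicle and TD139 mice; each point is 1 mouse and the bar the mean and SD of the 3. In the Gnat2 and Gnat1 panel the vehicle mice sit at 1.39 to 1.60, above the naive mice at 1.05 to 1.22 and the TD139 mice at 1.04 to 1.32.

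Fold changes under TD139 were tied to transcript length across the whole table. Over 15067 genes with an annotated transcript the Spearman correlation of the log2 fold change with length was 0.49 for TD139 against vehicle and 0.61 for TD139 against naive, against -0.10 for vehicle against naive, and with GC content it was -0.37, -0.42 and 0.12; these are across genes, which share the libraries and are not replicates. Across the 10 cone genes the correlation with length was 0.32, 0.59 and 0.24 in the same order. Gngt2 (587 bases) and Gnb3 (1846 bases) were among the shorter cone transcripts and lay below 0, and Cnga3 (3554 bases) and Cngb3 (4708 bases) were among the longer ones and lay above 0, in TD139 against vehicle. Others went against that order, with Pde6h, the longest (5940 bases), at -0.31 and Arr3 (1359 bases) at 0.66. With both properties fitted out, the TD139 against vehicle value of Gngt2 was -0.04 (adjusted p = 0.862), that of Cngb3 0.18 (adjusted p = 0.712), that of Cnga3 0.50 (adjusted p = 0.0845), and that of Arr3 0.99 (adjusted p = 0.0470). Opn1mw (1227 bases) then changed sign, to 0.35 (adjusted p = 0.0922). The value for Pde6h, -0.68 (adjusted p = 0.208), depends on that annotated length. The share of reads on no gene moved with the same groups, as given above, and its part in these values was not tested.

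**Figure D4:**
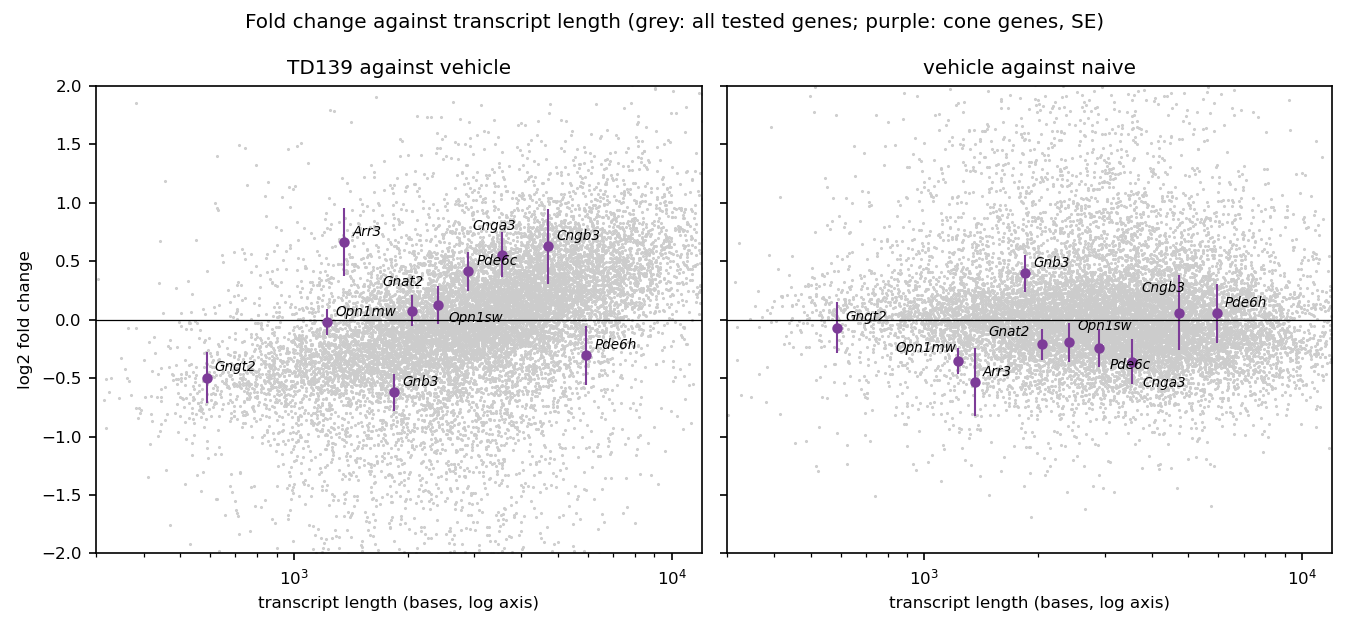
Log2 fold change (axis from -2 to 2) against transcript length in bases (log axis) for TD139 against vehicle and vehicle against naive; grey dots are the tested genes within the axes and purple points the 10 cone genes with their SE. The grey cloud rises with length in the TD139 panel (Spearman 0.49), and Arr3 at 1359 bases lies above most of it.

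Other genes of the cascade were read from lists of photoreceptor shutoff and calcium feedback and of cone fate and opsin regulators. Of 14 shutoff and feedback genes 5 fell after light (0 rose; median -0.58) and 8 rose under TD139 against vehicle (0 fell; median 0.61), beside 2.89% of all genes called lower after light and 17.2% called higher under TD139. The 3 most abundant were Pdc (phosducin, which binds transducin beta-gamma), at -0.79 ± 0.16 (adjusted p = 0.0236) and then 0.36 ± 0.16 (adjusted p = 0.105), Grk1 (a photoreceptor opsin kinase), at -0.90 ± 0.17 (adjusted p = 0.0209) and then 1.01 ± 0.17 (adjusted p = 0.00568), and Guca1a (a guanylate cyclase activator), at -0.39 ± 0.12 (adjusted p = 0.0596) and then -0.08 ± 0.11 (adjusted p = 0.624). Once length and GC content were fitted out the TD139 against vehicle values of Pdc (0.47, adjusted p = 0.0302) and Guca1a (0.48, adjusted p = 0.0208) were called higher, the latter with its sign turned. The others that fell were Slc24a1 (a rod sodium, calcium and potassium exchanger), Rgs9bp (the anchor of the transducin-inactivating complex) and Gucy2e (a retinal guanylate cyclase), at -0.63, -0.89 and -0.60. The count after light was 0 without naive mouse 1, 2 or 3 or vehicle mouse 1 or 3, and 3 without TD139 mouse 3, while that under TD139 against vehicle stayed between 7 and 9 with any 1 mouse left out. Against the naive mice 1 of the 14 rose under TD139 (Slc24a2, the cone exchanger, 0.60 ± 0.15, adjusted p = 0.0466) and 1 fell (Guca1a, -0.47 ± 0.12, adjusted p = 0.0465), beside 2.72% and 2.38% of all genes. Both calls were lost with length and GC content fitted out, at 0.09 (adjusted p = 0.766) and -0.02 (adjusted p = 0.961), and without naive mouse 1 or 2, vehicle mouse 2 or 3 or TD139 mouse 2 or 3.

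Of 12 regulators 2 fell after light, beside 2.89% of all genes, Crx (-0.67 ± 0.13, adjusted p = 0.0224) and Nr2e3, a rod factor that represses cone genes (-0.48 ± 0.10, adjusted p = 0.0249). Under TD139 7 of the 12 rose against vehicle, beside 17.2% of all genes, among them Crx (0.63 ± 0.13, adjusted p = 0.00834), Nr2e3 (0.46 ± 0.10, adjusted p = 0.00954) and Thrb, the thyroid hormone receptor that sets M-opsin (0.78 ± 0.20, adjusted p = 0.0159). Neither light call held without naive mouse 1, 2 or 3 or vehicle mouse 1 or 3, and 5 regulators were called lower without TD139 mouse 1 and 3 without vehicle mouse 2. The 7 became 3 without TD139 mouse 2 and 4 without TD139 mouse 3 or vehicle mouse 3. With length and GC content fitted out the count was 6, Crx and Nr2e3 were called again (0.62 and 0.71) and Thrb (0.33, adjusted p = 0.0879) and Rorb were not. Rorb, a retinoid-related orphan receptor, went from 0.40 (adjusted p = 0.0443) to -0.25 (adjusted p = 0.117). Nrl, the factor of rod fate and the most abundant of the list, was at -0.65 ± 0.19 (adjusted p = 0.0616) after light and 0.47 ± 0.19 (adjusted p = 0.0775) under TD139 against vehicle, where with length and GC content fitted out it was called (0.68, adjusted p = 0.0442). In the TD139 against the naive mice 0 of the 12 were called by edgeR and 1 had an unadjusted p under 0.05. DESeq2 called 1 higher and limma with voom 3 higher, beside 9.4% and 19.7% of all genes.

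Among 9 further genes enriched in cones, of which 8 were matched and tested (Clca3a2 was not matched), 0 were called after light by edgeR on all mice, at a median of -0.21. Of these 2 had an unadjusted p under 0.05, and DESeq2 called 2 lower and limma with voom 1 lower, beside 7% and 9.95% of all genes. When length and GC content were fitted out edgeR called 2 lower, Guca1a (-0.50, adjusted p = 0.0228) and Kcne2 (-0.41, adjusted p = 0.0271), and it called 2 lower without TD139 mouse 1 and 1 on flow cell 1 alone. The values were -0.39 for Guca1a, 0.06 for Ccdc136 and -0.38 ± 0.11 (adjusted p = 0.0588) for Kcne2, a potassium channel subunit. Under TD139 3 of the 8 rose against vehicle, beside 17.2% of all genes: Kcne2 (0.40 ± 0.11, adjusted p = 0.0183), Slc24a2 (0.55 ± 0.15, adjusted p = 0.0174) and Thrb. With length and GC content fitted out Kcne2 was again called (0.58, adjusted p = 0.0112) and Slc24a2 was not (-0.07, adjusted p = 0.678). The count was 2 without vehicle mouse 2 and 0 without vehicle mouse 3 or TD139 mouse 2 or 3. Guca1a, Slc24a2, Thrb, Rxrg and Sall3 stand in more than 1 of these lists.

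Genes of neighbouring cells were measured beside the cone genes. Of 10 ON bipolar genes 0 were called after light by edgeR (1 had an unadjusted p under 0.05, DESeq2 called 1 lower and limma with voom 0), and under TD139 against vehicle 6 rose and 2 fell, beside 17.2% and 16.2% of all genes, the 2 being Pcp2 (-0.67 ± 0.19, adjusted p = 0.0236) and Gng13, the gamma partner of Gnb3 in these cells (-0.74 ± 0.15, adjusted p = 0.00709). Prkca (0.45 ± 0.12, adjusted p = 0.0185) and Gpr179 (0.44 ± 0.10, adjusted p = 0.0107), the other most abundant ones, rose. With length and GC content fitted out none of these 4 was called: Pcp2 was at -0.13 (adjusted p = 0.483), Gng13 at -0.15 (adjusted p = 0.225), Prkca at -0.05 (adjusted p = 0.687) and Gpr179 at 0.14 (adjusted p = 0.199), and over the list 3 were higher and 0 lower. Without vehicle mouse 3 the list had 4 higher and 1 lower, without TD139 mouse 2 it had 2 and 1, and without TD139 mouse 3 it had 1 and 1. The summed level of the list was 1798 to 1887 CPM in the naive, 1716 to 1862 in the vehicle and 1933 to 1970 CPM in the TD139 mice, and its part in the level of Gnb3 was not tested. Of 9 microglial genes 5 rose after light and 6 fell under TD139 against vehicle, beside 4.91% and 16.2% of all genes, with summed levels of 29.2 to 31.9, 149 to 297 and 22.5 to 97.5 CPM. The 5 that rose were Csf1r, Trem2, Cx3cr1, Tmem119 and Aif1, at log2 fold changes of 1.31 to 3.78. That count was 0 without naive mouse 1, 2 or 3 or vehicle mouse 3, 1 without vehicle mouse 1, 9 without TD139 mouse 1 and 8 with length and GC content fitted out. The 6 that fell became 3 without vehicle mouse 3 and 2 without TD139 mouse 2 or 3. Müller glia genes rose in 3 of 6 after light, beside 4.91% of all genes (Slc1a3, Aqp4 and Sox9), from 3218 to 3955 CPM summed in the naive to 3964 to 4490 CPM in the vehicle mice. None of the 3 held without naive mouse 1 or 2 or vehicle mouse 1 or 3, the count was 1 without naive mouse 3, and 2 without TD139 mouse 3. Under TD139 against vehicle none of the 6 was called by edgeR on all mice, 2 had an unadjusted p under 0.05, DESeq2 called 1 lower and limma with voom 2, and with length and GC content fitted out Slc1a3 (-0.68), Aqp4 (-0.53) and Sox9 (-0.62) were called lower. Against the naive mice Aqp4 was called higher under TD139 (0.70 ± 0.15, adjusted p = 0.0420) and was not with length and GC content fitted out (0.31, adjusted p = 0.333).

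In 6 further lists at most 2 genes were called in any comparison by edgeR on all mice. OFF cone bipolar genes rose in 2 of 5 under TD139 against vehicle (Grik1 at 0.31 and Tacr3 at 0.39), beside 17.2% of all genes. With length and GC content fitted out both were at 0.17 (adjusted p = 0.153 and 0.344) and none was called, nor was any without vehicle mouse 2 or 3 or TD139 mouse 2 or 3. With library size alone 0 were higher and 1 lower, and DESeq2 called 4 higher, as did limma with voom, which also called 1 lower. Horizontal cell genes rose in 1 of 5 in each comparison (Calb1 at 0.42 after light, Onecut1 at 2.12 under TD139 against vehicle and Onecut2 at 0.76 against naive), beside 4.91%, 17.2% and 2.72% of all genes called higher. Calb1 (0.45, adjusted p = 0.0806) and Onecut2 (0.09, adjusted p = 0.865) were not called with length and GC content fitted out, and Onecut1 (1.99, adjusted p = 0.0216) was. Onecut2 was then called higher after light (0.62, adjusted p = 0.0414) and Calb1 lower under TD139 against vehicle (-0.82, adjusted p = 0.0139). No horizontal cell gene was called after light without naive mouse 1, 2 or 3, vehicle mouse 1 or 3 or TD139 mouse 2 or 3, nor under TD139 against vehicle without TD139 mouse 2. Ganglion cell genes fell in 1 of 7 under TD139 against vehicle (Sncg, -0.53), no larger a share than the 16.2% of all genes, and Sncg was at 0.03 (adjusted p = 0.846) with length and GC content fitted out. No ganglion cell gene was called without naive mouse 2, vehicle mouse 1 or 3 or TD139 mouse 2 or 3. Amacrine genes were called in none of 5 in any comparison by edgeR on all mice, with 2, 0 and 3 at an unadjusted p under 0.05 (DESeq2 called 1, 0 and 1 and limma with voom 2, 0 and 3 of them higher). Fitting out length and GC content, edgeR called Tfap2a (0.37, adjusted p = 0.0347) and Gad2 (0.37, adjusted p = 0.0458) higher after light and Gad2 lower under TD139 against vehicle (-0.35, adjusted p = 0.0450). With library size alone it called 1 higher after light. Beside 16.2% of all genes called lower, pigment epithelium genes fell in 2 of 5 under TD139 against vehicle (Ttr at -1.42 and Rpe65 at -0.83). These were -1.13 (adjusted p = 0.105) and -0.79 (adjusted p = 0.0666) with length and GC content fitted out, where Lrat, a retinoid acyltransferase, was called lower in their place (-1.25, adjusted p = 0.0185). The count was 4 of 5 with library size alone, DESeq2, limma with voom or only the groups compared, it was 0 with no filter on low counts, and no gene of the list was called without vehicle mouse 2 or TD139 mouse 2 or 3. Lens genes were called in none of 6 by edgeR, DESeq2 or limma with voom, with 0 at an unadjusted p under 0.05 by edgeR. Atp5b, which the study used as a reference gene, was at -0.13 ± 0.11 (adjusted p = 0.452) after light and -0.10 ± 0.11 (adjusted p = 0.505) under TD139 against vehicle.

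Over the 9 mice the cone genes did not form 1 block. The level of each (log2 CPM with a prior count of 1) was correlated with the mean standardized level of the other 9: Gnat2 came closest, at a Pearson r of 0.96, then Opn1sw (0.75) and Arr3 (0.68), while Opn1mw (-0.02), Pde6c (-0.36) and Gnb3 (-0.52) did not follow. Pde6h and Gngt2 went together (r = 0.90), as did Arr3 and Cngb3 (0.82), and Cnga3 ran opposite to Gnb3 (-0.96). Of 13083 other genes that averaged 50 counts or more, the 5 most like the mean of the 10 were Ttll1 (r = 0.96), Hpdl (0.95), 3000002C10Rik (0.95), Hexdc (0.94) and Pde6d (0.94), and Pde6d encodes a carrier of prenylated proteins that binds the phosphodiesterase. These are descriptions over 9 mice in 3 groups that share libraries and length effects. The mean of the 10 standardized levels was highest in naive mouse 1 (0.97) and lowest in vehicle mouse 3 (-0.63).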

How the data were processed

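Poly(A) RNA of whole retinas was sequenced as stranded single reads on 2 flow cells. The authors aligned the reads and counted them per gene (BaseSpace RNA Express, by the study's methods; build mm10 by the submitters' processing notes). The study's text speaks of DESeq2 normalization, whereas the deposited values are whole numbers per gene symbol whose totals differ between runs, and they were used here as raw counts. Here the 2 runs of a mouse were summed: they differed by 1.63 to 1.80 in chi-square per degree of freedom, against 16.7 to 73.1 between mice of 1 group. Mice were tested over all 3 groups in 1 fit with edgeR 4.0.16 (filterByExpr, TMM, robust quasi-likelihood F test, Benjamini-Hochberg over 15196 genes, threshold 0.05) in R 4.3.3. The method was tested on simulated data with the same spread for every gene, so the wider spread of some cone genes was not represented. There it found 72 of 100 genes changed by 0.5 on the log2 scale and 100 of 100 changed by 1, with 10 false calls. Rows for no feature and ambiguous reads (0.303 to 0.471%) were left out. Lengths, GC content and positions came from GENCODE on the same build, joined for 23053 of 23420 symbols. The correction for length and GC content was a spline of 4 degrees of freedom per mouse. Ratios within a mouse used exact permutation tests. Alternatives were RLE and library-size scaling, filters, DESeq2 1.42.0, limma 3.58.1, only the groups compared, the replicate block, single flow cells and each mouse left out.

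The cone genes and lists were chosen with earlier results of these data known. Named were all 10 cone genes, the 3 most abundant tested genes of each other list with every called gene where at most 5 were called, Atp5b, and the 5 most alike genes. For the lists of neighbouring cells only some of these are printed. One planned item is not reported here. Mice are the replicates, and the labels do not say whether they were housed or treated together.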

Additional observations from a re-analysis of the deposited data

How the results depend on the processing

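No choice of scaling, filter, tool or mice led to a cone gene called higher in the vehicle or the TD139 against the naive mice. Cone genes lower in the vehicle against the naive mice numbered 0, and 1 with DESeq2 (Opn1mw) and 2 with limma with voom and quality weights (Opn1mw and Arr3). Leaving out 1 mouse at a time gave 0 to 1. Cone genes higher under TD139 against vehicle numbered 1, and 0 with library size alone, 2 with DESeq2, 3 with limma with voom, 0 on flow cell 1 alone and 0 on flow cell 2 alone, with 0 to 2 leaving out 1 mouse at a time. Those lower numbered 1, and 2 with limma with voom, 3 with only the groups compared and 0 with the length and GC correction, with 0 to 2 leaving out 1 mouse at a time. Those lower under TD139 against naive numbered 0, and 1 with DESeq2 and 3 with limma with voom, with 0 to 1 leaving out 1 mouse at a time. The median cone to rod ratios kept their direction under every alternative run, leaving out 1 mouse at a time included. The Opn1sw to Opn1mw difference under TD139 against vehicle was 0.14, and -0.15 with the length and GC correction, an alternative chosen after seeing the data.

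The replicate numbers share only a number: deviations of same-numbered mice correlated between -0.26 and 0.29 over the comparisons, and not every mouse correlated best with its own number. With the replicate block 3 cone genes were higher under TD139 against vehicle (Arr3, Pde6c and Cngb3), and Cnga3 was not (adjusted p = 0.0581). With the replicate block and the length and GC correction together 2 were higher (Arr3 and Pde6c) and 0 lower.

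Values near 0 changed sign. With limma with voom these were Opn1sw (0.0077 after light, 0.14 under TD139 against naive), Cngb3 (-0.092 after light), Opn1mw (0.016 under TD139 against vehicle) and Arr3 (-0.050 under TD139 against naive). With library size alone Gngt2 was at 0.029 after light and Gnat2 at -0.0043 under TD139 against vehicle, and on flow cell 2 alone Opn1mw was at 0.00080 under TD139 against vehicle. With the length and GC correction Opn1mw was at 0.35 under TD139 against vehicle, and under TD139 against naive Opn1sw was at 0.015, Gnat2 at 0.0036 and Gnb3 at 0.067. With the replicate block added these were 0.34, 0.043, 0.016 and 0.064. Leaving out 1 mouse at a time moved the values after light from -0.30 to 0.079 for Opn1sw, -0.19 to 0.41 for Pde6h, -0.30 to 0.36 for Cngb3 and -0.29 to 0.26 for Gngt2. Under TD139 against vehicle it moved Opn1mw from -0.087 to 0.088 and Gnat2 from -0.0067 to 0.14, and under TD139 against naive it moved Opn1sw from -0.18 to 0.21, Arr3 from -0.15 to 0.34, Gnat2 from -0.25 to 0.036 and Pde6h from -0.50 to 0.11. The sign changed without naive mouse 1 (Opn1sw and Gngt2 after light, and Opn1sw, Gnat2 and Pde6h under TD139 against naive), naive mouse 3 (Pde6h and Cngb3 after light, Arr3 under TD139 against naive), vehicle mouse 1 (Cngb3 after light), vehicle mouse 2 (Pde6h after light, Opn1mw under TD139 against vehicle), vehicle mouse 3 (Gnat2 under TD139 against vehicle) or TD139 mouse 2 (Opn1mw under TD139 against vehicle).

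Over all genes the calls after light numbered 746 higher and 439 lower, and 893 and 258 with library size alone; under TD139 against vehicle 2617 and 2455, and 1942 and 3040; under TD139 against naive 413 and 362, and 366 and 194. Leaving out 1 mouse at a time gave 1 to 1167 higher and 0 to 815 lower after light, 867 to 2995 and 759 to 2931 under TD139 against vehicle, and 0 to 1523 and 0 to 1156 under TD139 against naive; the other alternatives gave 559 to 1821 and 258 to 1512, 1328 to 3550 and 1300 to 3480, and 0 to 2995 and 0 to 2472. DESeq2 called more of several lists after light: 9 of the 14 shutoff genes lower against 5, 5 of the 12 regulators lower against 2 and 8 of the 9 microglial genes higher against 5. Over all genes DESeq2 then called 8.92% higher and 7% lower, against 4.91% and 2.89%, and limma with voom called 12% and 9.95%. Under TD139 against vehicle DESeq2 called 19.9% higher and 18.7% lower, and limma with voom 23.4% and 22.9%. Under TD139 against naive DESeq2 called 9.4% higher and 7.61% lower, and limma with voom 19.7% and 16.3%. Depth was 26171887 reads or more per mouse, and Cnga3 and Cngb3, with 190 to 567 reads, carry the largest counting error of the cone genes.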
